A study of Mus musculus with 16 samples.

Results

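Mapt encodes tau, the microtubule-binding protein that aggregates in tauopathies, and 9 further genes of the MAP and stathmin families encode other proteins that bind microtubules or tubulin. These 10 genes, Mapt, Map1a, Map1b, Map2, Map4, Map6, Stmn1, Stmn2, Stmn3 and Stmn4, were chosen by symbol, with earlier results of these data known. Each matched 1 of the 49671 gene rows of the count table. Their RNA was measured by bulk sequencing of hippocampus from female mice of 8 months, in 16 libraries. The 4 groups, each of 4 libraries, were PS19_p16KO (tau transgene present, p16 knocked out), PS19 (tau transgene present, p16 wildtype), p16KO (no tau transgene, p16 knocked out) and WT (wildtype for both). In PS19 animals the mouse prion promoter drives a mutant human tau cDNA, while the animals' own Mapt remains in place. The comparisons ask whether the human transgene, loss of the cell cycle inhibitor p16, or both together go with other levels of the mouse tau gene and its relatives. The labels do not state that each library is a different animal, and the p-values below therefore reflect library-to-library spread, part of which may be technical.

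Tau and MAP2 belong to one family with MAP4, whose members lie along microtubules and stabilize them through short repeats near the carboxy end of the protein. In mature neurons tau is found mainly in axons and MAP2 mainly in dendrites, while MAP4 is also made by many cells that are not neurons. MAP1A and MAP1B form a second family of large proteins that are cut into heavy and light chains, and MAP6 keeps microtubules stable in the cold. Stathmins act in the opposite way, binding free tubulin and promoting the disassembly of microtubules.

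Stmn1 and Stmn2 shared the longest run of identical coding bases among the 10 genes, so that short reads there could in principle match both, and a stretch of coding sequence of the 4 stathmins is shown first, from GENCODE release M21 on GRCm38, 5′ to 3′. It holds the 93 bases that Stmn1 shares best with the 3 other stathmins, in the part of the protein that binds tubulin, with capitals at the 59 bases that all 4 share. They lie at chr4:134472825-134472917, chr3:8554813-8554905, chr2:181307294-181307386 and chr14:66357867-66357959, and Stmn3 is on the minus strand.
Stmn1: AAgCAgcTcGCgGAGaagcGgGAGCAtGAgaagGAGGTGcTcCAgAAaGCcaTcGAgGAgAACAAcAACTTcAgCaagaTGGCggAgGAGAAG
Stmn2: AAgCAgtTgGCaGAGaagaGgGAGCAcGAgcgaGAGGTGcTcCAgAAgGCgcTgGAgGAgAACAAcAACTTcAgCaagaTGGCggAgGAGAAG
Stmn3: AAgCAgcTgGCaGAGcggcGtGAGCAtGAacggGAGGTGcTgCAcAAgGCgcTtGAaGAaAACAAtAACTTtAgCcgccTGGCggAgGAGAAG
Stmn4: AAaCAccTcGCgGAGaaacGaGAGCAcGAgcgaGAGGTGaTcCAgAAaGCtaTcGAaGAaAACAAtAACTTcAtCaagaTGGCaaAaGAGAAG
The longest run of identical bases between the longest coding sequences of any of the 45 gene pairs was 43 bases, between Stmn1 and Stmn2, followed by 26 bases between Map1a and Map1b. Mapt shared no run longer than 14 bases with any other member.

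Reads of overlapping genes may also be shared, since no source used here gives the strand setting of the counting. Exons of Map1a overlapped those of Ppip5k1 on the opposite strand by 272 bases, or 2.24% of its exon length, those of Map2 overlapped the antisense gene Gm10558 by 124 bases, and those of Stmn1 held the miRNA gene Gm23634. These partners had 32155, 13 and 4 counts over all libraries, against 510809 for Map1a, 387542 for Map2 and 59292 for Stmn1. The other 7 genes overlapped no annotated exon of another gene. Mapt lies on chromosome 11 (104231390 to 104332090), Map2 on chromosome 1 (66175273 to 66442583), Map1a on chromosome 2 (121289600 to 121310832), Map1b on chromosome 13 (99421446 to 99516540), Map4 on chromosome 9 (109931460 to 110083955) and Map6 on chromosome 7 (99267447 to 99337137). The stathmins are spread over chromosomes 4 (Stmn1, 134468320 to 134473843), 3 (Stmn2, 8509360 to 8561606), 2 (Stmn3, 181306459 to 181314500) and 14 (Stmn4, 66344296 to 66361680).

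Neuronal content and the genotypes were checked before the members. The 14 neuronal markers summed to between 12830 and 15510 CPM in every library, where CPM is a gene's count as a rate per library, relative to all gene counts (ERCC spike-ins left out) and scaled between libraries by TMM. Cdkn2a, the gene of p16, had 2 counts in all over the PS19_p16KO libraries and 18 over the PS19 libraries, and 3 over the p16KO libraries against 8 over the WT libraries. Prnp, whose promoter drives the transgene, averaged 1870 CPM ± 60.8 (SD, n = 4) in PS19_p16KO and 1767 CPM ± 223.5 in PS19, against 1065 CPM ± 7.24 in p16KO and 1022 CPM ± 36 in WT. Gene counts per library ran from 18485552 to 22311322. The libraries PS19_p16KO 3, p16KO 4 and WT 1 held RNA of choroid plexus, with marker sums of 5968, 3596 and 933.5 CPM against 45.3 to 215 CPM in the other 13. Some fold changes of Mapt, Map2, Stmn1 and Stmn4 are also given without them. All other values include them unless stated. In bulk tissue, fewer cells of a type and less RNA per cell cannot be told apart.

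All 10 genes were abundantly transcribed in every library, with 1911 to 37519 counts per gene and library. Levels between genes are compared per kilobase of annotated exons (RPKM). By that scale Stmn3, a membrane-attached stathmin, stood first in all 16 libraries, with a median level of 334.6 RPKM and a range of 296.6 to 364 RPKM. Map1a followed at a median of 136.4 RPKM and Map6 was last at 14.0 RPKM, its range of 12.2 to 14.7 RPKM lying below that of every other member. Between them came Stmn1 at 94.5, Map1b at 85.4, Map2 at 75.2, Mapt at 71.3, Stmn4 at 59.1, Map4 at 49.0 and Stmn2 at 47.8 RPKM. Ranges of neighbours in this middle part overlapped: the Map2 level exceeded the Mapt level in 11 of 16 libraries, and the Map4 level exceeded the Stmn2 level in 9 of 16. The order depends on which length is used, because genes with many transcripts gain exons that a single mRNA lacks. With the length of the longest annotated transcript only 4 of the 10 genes held their rank, Map2 stood second at 197.7 RPKM and Mapt seventh at 102.2 RPKM.

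**Figure D1:**
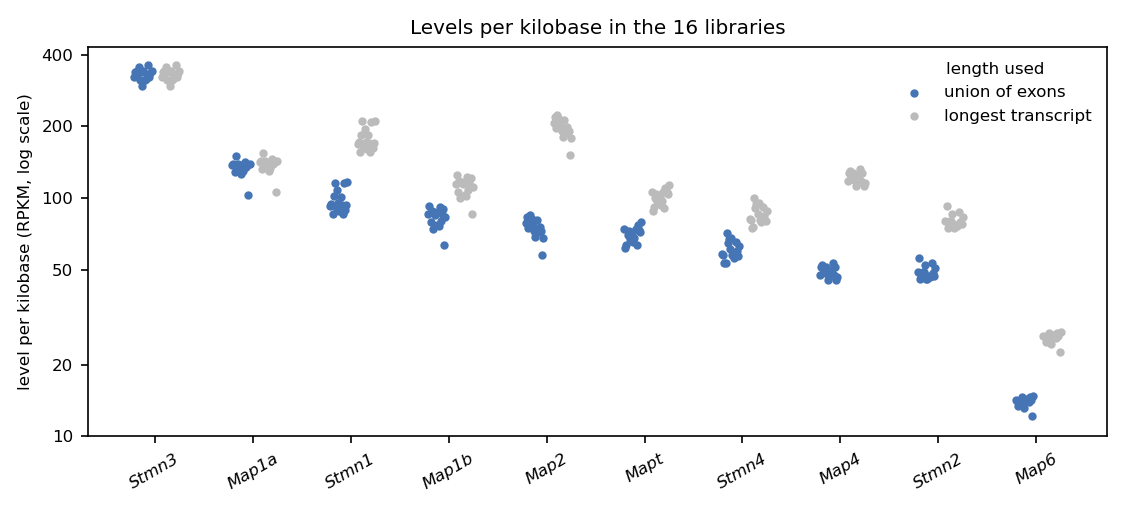
Level of each of the 10 genes per kilobase (RPKM, log axis) in the 16 libraries, 1 point per library, with length taken from the union of exons (blue) or the longest transcript (grey). Stmn3 is highest and Map6 lowest by either length, and Map2, at medians of 75.2 and 197.7 RPKM, moves up to second place with the longest transcript.

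Within the stathmin family, Stmn3 made up 59.5% to 64.9% of the summed RPKM of the 4 genes in any library, Stmn1 16.3% to 20.4%, Stmn4 9.98% to 12.45% and Stmn2 8.26% to 10.3%. Within Mapt, Map2 and Map4, Mapt made up 37.25% to 41.2% of the summed RPKM in PS19_p16KO libraries, 33.4% to 38.1% in PS19, 33.8% to 37.5% in p16KO and 31.3% to 36.9% in WT. These shares use the union of exons and depend on that length. With the longest transcript, median levels were 102.2 RPKM for Mapt, 121.8 for Map4 and 197.7 for Map2, which put Mapt below both. Stmn1 then stood at 171.2 RPKM, while Stmn3 stayed at 334.6 RPKM. All shares include the libraries that held choroid plexus RNA.

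Mouse Mapt, the endogenous tau gene, had about the same level with the transgene as without it when p16 was intact. Its level was 494, 512, 556.5 and 477 CPM in the 4 PS19 libraries, against 558, 464, 480 and 526 CPM in the 4 WT libraries. The groups overlapped over nearly their whole ranges. The fold of PS19 over WT was 1.005 (log2 0.01 ± 0.06 standard error, 95% interval 0.921 to 1.10-fold, edgeR quasi-likelihood test, adjusted p = 0.986). Whether any reads of the human transgene were counted there was not tested.

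In the groups without p16, Mapt stood at 580, 556, 544.5 and 598 CPM in PS19_p16KO and at 549, 509.5, 542 and 532 CPM in p16KO. PS19_p16KO 3 lay within the p16KO range and PS19_p16KO 1, 2 and 4 above it. The log2 fold change of PS19_p16KO over p16KO was 0.10 ± 0.06 (95% interval 0.979 to 1.17-fold, edgeR adjusted p = 0.999). Set against PS19, the PS19_p16KO libraries averaged 569.5 CPM ± 24.0, and PS19 averaged 509.9 CPM ± 34.1 (SD, n = 4 each). Only PS19 3, at 556.5 CPM, reached into the PS19_p16KO range. The log2 fold change was 0.16 ± 0.06 (95% interval 1.02 to 1.22-fold, unadjusted p = 0.0160), which did not pass over all genes (edgeR adjusted p = 0.361). Under leave-one-out it ran from 0.128 to 0.205. The edgeR unadjusted p was 0.0649 without PS19 4 and 0.0539 without PS19_p16KO 4, and it was under 0.05 in 25 of 27 alternatives. For p16KO against WT the means were 533.2 CPM ± 17.4 and 507.2 CPM ± 42.9, with a log2 fold change of 0.07 ± 0.06 (edgeR adjusted p = 0.999). That value was 0.12 without WT 1, 0.03 without WT 2 and 0.05 without WT 3. Averaged over both tau genotypes, the log2 fold change of p16 knockout was 0.12 ± 0.04 (unadjusted p = 0.0137, edgeR adjusted p = 0.445). Without the 3 libraries that held choroid plexus RNA, the Mapt log2 fold change was 0.05 in PS19 against WT (edgeR adjusted p = 0.819), 0.19 in PS19_p16KO against PS19 (edgeR adjusted p = 0.248), 0.12 in p16KO against WT (edgeR adjusted p = 0.884) and 0.15 for the average p16KO effect (edgeR adjusted p = 0.274).

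**Figure D2:**
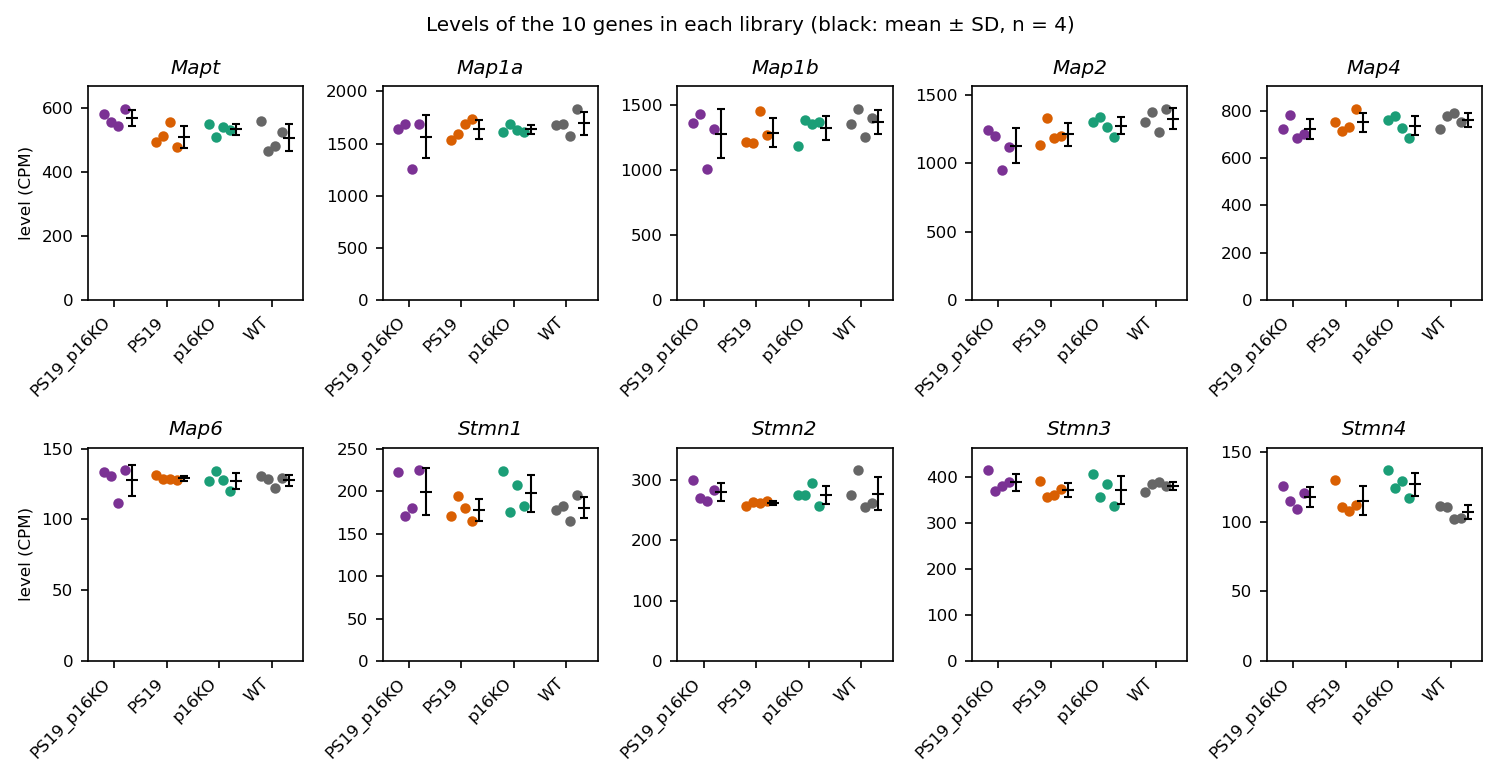
Level of each gene (CPM, axes from 0) in the 16 libraries, 1 point per library, by group in the order PS19_p16KO, PS19, p16KO and WT, with the mean ± SD of each group (n = 4) in black. In Mapt the 4 PS19_p16KO libraries lie between 544.5 and 598 CPM, in Stmn4 the p16KO libraries lie above every WT library, and PS19_p16KO 3 is the low point of Map1a, Map1b, Map2 and Map6.

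Across the 4 pairwise comparisons, the interaction and the 2 average effects, 0 of the 10 genes passed edgeR's test at an adjusted p of 0.05. Over all 16372 genes tested, 1.61% were called in PS19 against WT, 0.825% in PS19_p16KO against PS19, 0.0183% in PS19_p16KO against p16KO, 0% in p16KO against WT, 0.00611% in the interaction, 0.391% in the average PS19 effect and 0.226% in the average p16KO effect, so that 0 of 10 is near the background in each. At an unadjusted p under 0.05 the members counted 0, 1, 1, 1, 1, 1 and 3 in that order, against 9.57%, 8.59%, 3.65%, 3.99%, 5.44%, 10% and 7.96% of all genes. DESeq2 and limma-voom also called 0 members in every comparison. A count of 0 does not show that levels were unchanged. The intervals that follow are unadjusted, each for a single gene, and give the folds that remain possible. In PS19 against WT the 95% intervals of all 10 genes lay between 0.823-fold and 1.18-fold, in PS19_p16KO against PS19 between 0.840-fold and 1.28-fold, in PS19_p16KO against p16KO between 0.798-fold and 1.17-fold and in p16KO against WT between 0.847-fold and 1.301-fold. The median log2 fold change of the 10 genes was -0.03, 0.01, -0.01 and -0.02 in these 4 comparisons, where that of all genes was -0.01, 0.00, 0.00 and 0.00.

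**Figure D3:**
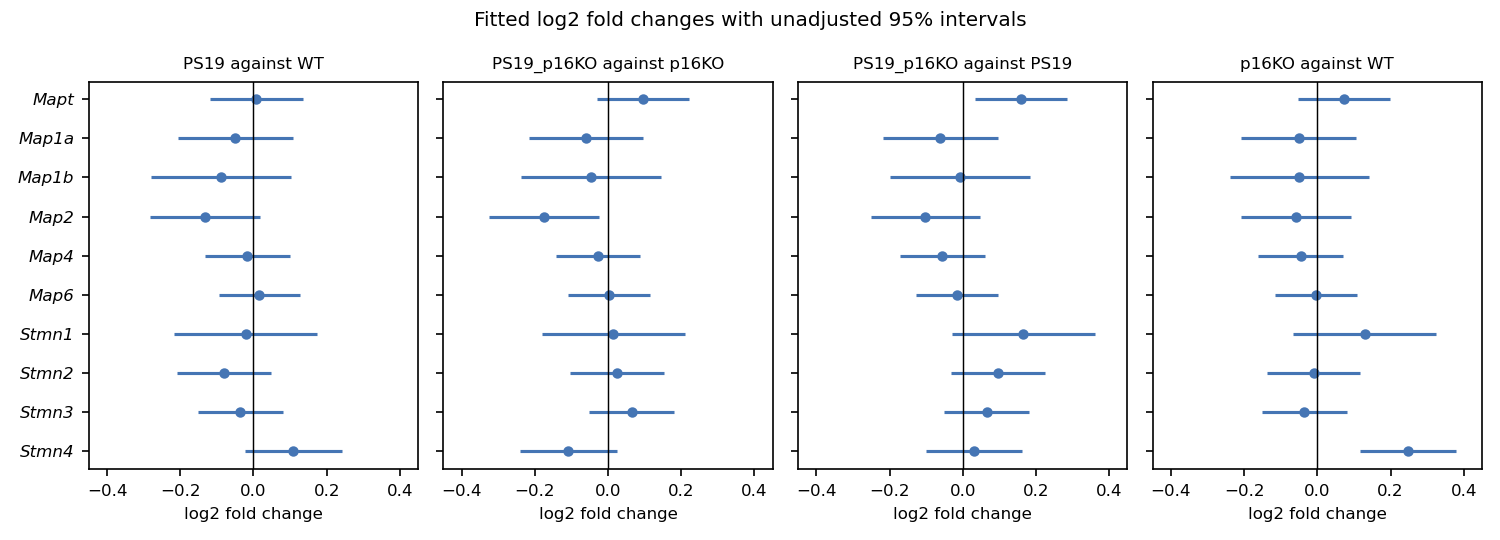
Fitted log2 fold change of each gene (points) with its unadjusted 95% interval (lines) in the 4 pairwise comparisons, the first-named group over the second. The intervals of Map2 in PS19_p16KO against p16KO, Mapt in PS19_p16KO against PS19 and Stmn4 in p16KO against WT leave out 0, and none of these passed after adjustment over all genes.

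Map2, the dendritic member, had the lowest unadjusted p for the tau transgene, with no call. Its level was 1243, 1197, 951.7 and 1120 CPM in PS19_p16KO and 1301, 1339, 1261 and 1194 CPM in p16KO. It was 1133, 1328, 1181 and 1201 CPM in PS19 and 1300, 1378, 1231 and 1397 CPM in WT. The transgenic libraries lay mostly in the lower part of the range, and in each comparison the groups overlapped. The log2 fold change was -0.18 ± 0.07 in PS19_p16KO against p16KO (edgeR unadjusted p = 0.0241, adjusted p = 0.999) and -0.13 ± 0.07 in PS19 against WT (edgeR unadjusted p = 0.0816, adjusted p = 0.615). Without PS19_p16KO 3 the first of these was -0.10 (edgeR unadjusted p = 0.104). Averaged over both p16 genotypes it was -0.15 ± 0.05 (95% interval 0.835 to 0.968-fold, unadjusted p = 0.00675, edgeR adjusted p = 0.274). Without PS19_p16KO 3 the average was -0.12 (edgeR adjusted p = 0.330), and without the 3 libraries that held choroid plexus RNA it was -0.14 (edgeR adjusted p = 0.285).

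Map1a, Map1b, Map4 and Map6 gave no unadjusted p under 0.05 in any of the 7 comparisons. Map1a averaged 1567 CPM ± 207.9 in PS19_p16KO, 1635 CPM ± 91.8 in PS19, 1634 CPM ± 38.5 in p16KO and 1692 CPM ± 107.9 in WT (SD, n = 4 each). Map1b, which is made most strongly while axons grow, averaged 1281 CPM ± 185.9 in PS19_p16KO, 1288 CPM ± 113.4 in PS19, 1323 CPM ± 95.1 in p16KO and 1369 CPM ± 91.2 in WT. The wide spread in PS19_p16KO came from PS19_p16KO 3, with 1257 CPM of Map1a and 1011 CPM of Map1b against at least 1641 and 1317 CPM in the other 3 libraries of its group. Map6, at 127.5 CPM ± 10.8 in PS19_p16KO, 129.0 CPM ± 1.61 in PS19, 127.2 CPM ± 5.78 in p16KO and 127.5 CPM ± 3.598 in WT, had the closest group means of the 10 genes. Map4 averaged 722.5 CPM ± 40.9 in PS19_p16KO, 751.2 CPM ± 40.9 in PS19, 736.6 CPM ± 40.1 in p16KO and 760.2 CPM ± 30.7 in WT.

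The members with the longest mRNA varied together with a property of the whole library. For each library, the median deviation from the 16-library mean of log2 CPM was taken over the 767 genes with a transcript over 8 kb and over the 1558 genes with none over 2 kb, all above 10 CPM, and the difference of these 2 medians was called the long minus short measure. Map1a and Map1b belong to the long genes themselves, so that a positive r is partly expected for them. The permutation p below takes no account of that. The r of the other long genes was not computed, so the relation cannot be called particular to these members. The measure was -0.27 in PS19_p16KO 3, the lowest of all libraries, and ran up to 0.18 in WT 2. By group its median was -0.07 in PS19_p16KO, -0.01 in PS19, 0.06 in p16KO and 0.06 in WT. PS19_p16KO 3 was the lowest of the 16 libraries in Map1a, Map1b, Map2 and Map6 and shared the lowest place in Map4, while it lay 10th from the bottom in Mapt and 9th in Stmn3. The library that shared that place in Map4 was p16KO 4, which was 2nd lowest in Map6. Both libraries held choroid plexus RNA. With the log2 choroid plexus sum, r was -0.749 for Map6, -0.601 for Map4, -0.597 for Map1a, -0.4745 for Map1b and -0.450 for Map2. Among the remaining members it ran from -0.328 for Stmn3 to 0.177 for Mapt. These r were not computed without the libraries that held choroid plexus RNA, and no p was computed for them. The part of choroid plexus RNA in these levels was not tested. Over the 16 libraries the level of Map1b (longest transcript 11808 bases) followed the measure with Pearson's r = 0.900 and Spearman's rho = 0.847 (permutation p = 4e-05 and 0.00011, adjusted p = 0.0022 and 0.00605 over 55 relations), and r was 0.771 without the 2 libraries farthest from the median of the measure. With group means removed, r was 0.934 for Map1b, 0.737 for Map1a, 0.512 for Map2, 0.0526 for Mapt and -0.477 for Stmn3. For Map1a (11825 bases) r was 0.775 and rho 0.615 (permutation p = 0.00153 and 0.0127, adjusted p = 0.0280 and 0.232), and r was 0.544 without those libraries. For Map2 r was 0.681 and rho 0.379 (permutation p = 0.00559 and 0.147, adjusted p = 0.0638 and 0.566), and r was 0.222 without them, so that relation rests on those libraries. Mapt gave r = -0.276 and rho = -0.262 (permutation p = 0.304 and 0.326, adjusted p = 0.511 and 0.619), with r = -0.0292 without them. Map4 and Map6 gave r = 0.337 and 0.410 (permutation adjusted p = 0.449 and 0.314), with r = -0.0564 and -0.232 without those libraries. Stmn3, with a longest transcript of 1136 bases, gave r = -0.475 and rho = -0.595 (permutation p = 0.0632 and 0.0172, adjusted p = 0.243 and 0.237), with r = -0.767 without them. Of the 55 relations, 3 had an adjusted p for r under 0.05. Map1a and Map1b also followed each other, with r = 0.832 and rho = 0.720 (permutation p = 0.00031 and 0.00242, adjusted p = 0.00852 and 0.0665) and r = 0.632 without the 2 libraries farthest in Map1a. With the measure as a covariate, an alternative chosen after seeing the data, the average log2 fold change of the tau transgene in Map2 was -0.10 (edgeR unadjusted p = 0.0537, adjusted p = 0.857) in place of -0.15, and that of p16 knockout in Mapt was 0.12 (edgeR unadjusted p = 0.0150).

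**Figure D4:**
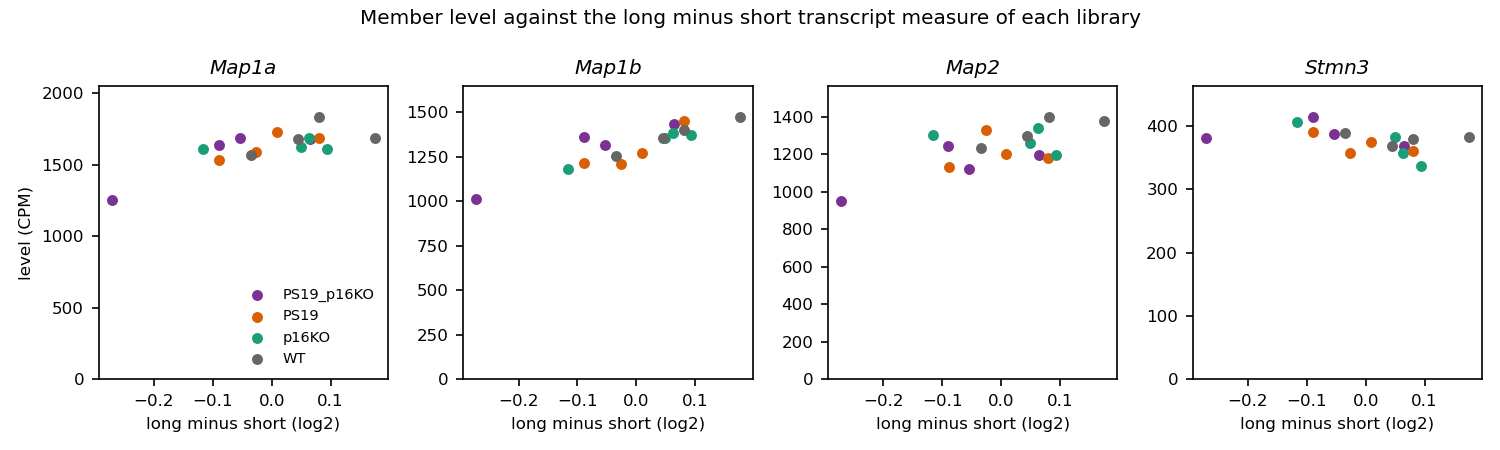
Level (CPM, axes from 0) of Map1a, Map1b, Map2 and Stmn3 against the long minus short measure of each library (log2), 1 point per library, coloured by group. PS19_p16KO 3 is the point farthest left at -0.27, with 1011 CPM of Map1b, while WT 2 at 0.18 has 1471 CPM.

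Among the stathmins, Stmn4 showed the clearest separation, between p16KO and WT. Its level was 136.6, 124, 129 and 117 CPM in the p16KO libraries, against 111, 110, 102 and 103 CPM in the WT libraries. Every p16KO library lay above every WT library. Such a gap was found in 1 of the 10 genes in this comparison and in 2.94% of all genes. The log2 fold change was 0.25 ± 0.06 (95% interval 1.08 to 1.301-fold, unadjusted p = 0.000862), rank 24 of all 16372 genes by p, and it did not pass (edgeR adjusted p = 0.588). Without the 3 libraries that held choroid plexus RNA it was 0.30 (edgeR adjusted p = 0.174). In the transgenic groups Stmn4 stood at 125.5, 115, 109 and 120 CPM in PS19_p16KO and at 130, 110, 108 and 112 CPM in PS19. These overlapped, with a log2 fold change of 0.03 ± 0.06 (edgeR adjusted p = 0.944). The difference between those 2 fold changes, the interaction, was -0.22 ± 0.09 (unadjusted p = 0.0247, edgeR adjusted p = 0.747). Averaged over tau genotypes the log2 fold change of p16 knockout was 0.14 ± 0.04 (unadjusted p = 0.00553, edgeR adjusted p = 0.320). With the 3 libraries that held choroid plexus RNA left out, the interaction was -0.23 (edgeR adjusted p = 0.5675) and this average was 0.19 (edgeR adjusted p = 0.1665).

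Oligodendrocyte lineage cells also transcribe Stmn4 and Mapt. The 12 oligodendrocyte markers summed to 3452 to 3947 CPM in p16KO, against 2651 to 3850 CPM in WT. All 12 had a positive log2 fold change with a median of 0.31, and 0 were called, where 0% of all genes were. At an edgeR unadjusted p under 0.05 there were 8 of the 12, against 3.99% of all genes. The sums of p16KO and WT overlapped only through WT 1, at 3850 CPM, which held choroid plexus RNA. The other WT libraries had 2651, 2690 and 3045 CPM, below every p16KO library. In PS19_p16KO the sum was 3384 to 4379 CPM, and in PS19 it was 3332 to 4488 CPM. The 10 markers of immature neurons and the 14 of mature neurons had 0 calls in every comparison, where at most 1.61% of all genes were called. Over the 16 libraries, the relation of each of the 10 genes to the oligodendrocyte sum was also computed, an addition made after seeing the data, and 0 of the 10 had an adjusted p under 0.05. The highest r was that of Mapt, 0.539 with rho = 0.491 (permutation p = 0.0311 and 0.0559, adjusted p = 0.311 and 0.422 over 10 relations), with r = 0.449 without the 2 libraries farthest in the sum and 0.440 with group means removed. For Stmn4 r was 0.378 and rho 0.366 (permutation p = 0.150 and 0.162, adjusted p = 0.562 and 0.541), with r = 0.144 without those libraries and 0.0654 with group means removed. The part of these cells in the group differences of Mapt and Stmn4 was not tested.

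Stmn1, the cytosolic stathmin, is strongly made in dividing cells and newborn neurons. Its level was 222, 171, 180 and 225 CPM in PS19_p16KO, 170.5, 195, 181 and 165 CPM in PS19, 223.5, 176, 207 and 183 CPM in p16KO, and 179, 182, 165.5 and 196 CPM in WT. The values of 222 CPM or more all came from knockout libraries, while the other knockout libraries lay within or near the range of the groups with p16. Averaged over tau genotypes the log2 fold change of p16 knockout was 0.15 ± 0.07 (unadjusted p = 0.0372, edgeR adjusted p = 0.598). Under leave-one-out it ranged from 0.12 to 0.18, and without the 3 libraries that held choroid plexus RNA it was 0.19 (edgeR adjusted p = 0.545). The unadjusted p was under 0.05 in 13 of 26 alternatives, and it was 0.0907 by edgeR without p16KO 1. Stmn1 and Cdkn2a lie on the same chromosome, 4, with 45.2 Mb between them. Of the 172 tested genes within 5 Mb of Stmn1, 0 were called in the average p16KO effect. Among all genes 0.226% were, so that 0 is near the background.

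Stmn2, which is attached to membranes in growing axons and needed for their regeneration, stood at 300, 270.5, 265 and 284 CPM in PS19_p16KO, against 257, 263, 262 and 264 CPM in PS19. The groups did not overlap, though the nearest libraries differed by less than 1 CPM. Such a gap was found in 1 of the 10 genes here and in 4.09% of all genes. Without TMM scaling the Stmn2 groups overlapped, at 269.2 CPM in PS19 2 against 266.8 CPM in PS19_p16KO 2 and 267.9 CPM in PS19_p16KO 3. The log2 fold change was 0.10 ± 0.06 (95% interval 0.978 to 1.17-fold, unadjusted p = 0.133, edgeR adjusted p = 0.730), and it was 0.06 without PS19_p16KO 1. The 4 PS19 libraries differed little among themselves in Stmn2, with an SD of 3.05 CPM against 15.46 CPM in PS19_p16KO, 15.6 CPM in p16KO and 27.0 CPM in WT. Stmn3 averaged 387.4 CPM ± 19.2 in PS19_p16KO, 370.3 CPM ± 14.9 in PS19, 370.6 CPM ± 30.04 in p16KO and 379.8 CPM ± 8.74 in WT, and no comparison gave it an unadjusted p under 0.05. In PS19_p16KO against p16KO and in PS19 against WT, 0 of the 10 genes separated the groups, where 2.80% and 5.04% of all genes did.

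Over the 16 libraries, 7 of the 10 genes varied more than the median gene of like level, and Map4, Map6 and Stmn3 varied less. The coefficient of variation over all 16 libraries was 4.54% for Map6 and 5.04% for Map4, against a median of 5.86% and 5.57% among genes whose mean level was within a factor of 2 of theirs. It was 7.16% for Mapt, where 25.4% of the 615 genes of like level had a higher value. Stmn1 varied most, at 10.8%, and 5.26% of 2090 genes of like level varied more. The genes whose level followed that of Mapt most closely over the 16 libraries, among 6152 other genes with a mean log2 CPM above 5, were Emc10 (Pearson's r of log2 CPM 0.851), Kctd6 (0.804), Deaf1 (0.784), Maea (0.782) and Ccnd1 (0.765). With group means removed they were Jag2 (0.832), Ing1 (0.801), Deaf1 (0.795), Ndrg1 (0.779) and Traf3 (0.764), so that only Deaf1 was among the 5 by both measures. The values share their libraries and depth, and the highest of many correlations are high by selection.

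The members' partners in the microtubule were also examined by list. Tubulins are the subunits themselves, and 0 of 16 tubulin genes were called in any of the 7 comparisons. The same count of 0 held for 16 tested genes of other structural microtubule-associated proteins, 19 of microtubule end-binding proteins, 8 of severing proteins, which cut microtubules, and 7 of tubulin-folding cofactors. Of all genes, 1.61% were called in PS19 against WT, the highest share of the 7 comparisons, so that 0 is near the background for each list. At an unadjusted p under 0.05 those 5 lists gave 0, 2, 0, 0 and 0 genes in PS19 against WT and 3, 1, 3, 0 and 0 in PS19_p16KO against PS19. Of all genes, 9.57% and 8.59% reached it there. In PS19_p16KO against PS19, positive values numbered 10 of 16 structural, 5 of 19 end-binding, 4 of 8 severing and 7 of 7 cofactor genes. In PS19 against WT these numbers were 5, 4, 5 and 3. The median log2 fold change of the 16 tubulin genes was 0.09 in PS19_p16KO against PS19, with 13 positive values, where 50.6% of all genes were positive, 0.07 in PS19_p16KO against p16KO, with 13 positive values, where 51.8% were, and -0.01 in PS19 against WT, with 8 positive values, where 48.3% were. The 14 neuronal markers had a median of 0.08 with 12 positive values in PS19_p16KO against PS19 and a median of 0.03 with 8 positive values in PS19_p16KO against p16KO, and their part in the tubulin values was not tested. Among 15 tubulin-modifying enzymes 1 was called, in PS19 against WT, where 1.61% of all genes were. Sirt2, a deacetylase that acts on tubulin and is abundant in oligodendrocytes, rose in PS19 to 120.8 CPM ± 8.78, against 101.2 CPM ± 7.12 in WT (log2 0.26 ± 0.06, edgeR adjusted p = 0.0399). Its mean was 113.8 CPM ± 7.97 in PS19_p16KO and 108.6 CPM ± 4.295 in p16KO. Sirt2 was not called between those groups or in the average PS19 effect. The 12 oligodendrocyte markers summed to 3332 to 4488 CPM in these PS19 libraries, against 2651 to 3850 CPM in WT, where only WT 1 exceeded 3332 CPM. All 12 were positive and 0 were called, where 1.61% of all genes were. At an edgeR unadjusted p under 0.05 there were 8, against 9.57% of all genes. Their part in the Sirt2 result was not tested. Of 8 tested genes of neuronal injury and growth, Atf3, a transcription factor induced by stress, rose in PS19 to 3.58 CPM ± 1.34, against 1.14 CPM ± 0.364 in WT (log2 1.65 ± 0.28, edgeR adjusted p = 0.00300), and it was also called in the average PS19 effect. In PS19_p16KO it averaged 1.69 CPM ± 0.445, against 1.24 CPM ± 0.0970 in p16KO, and it was not called there. The 10 microglial markers summed to 439 to 907.3 CPM in PS19, against 314.3 to 353.2 CPM in WT, with 7 of 10 called higher. The 8 astrocyte markers summed to 5328 to 7698 CPM in PS19, against 4606 to 4778 CPM in WT, with 8 of 8 positive and Gfap called (log2 1.84 ± 0.26, edgeR adjusted p = 0.00338). The part of either list in the Atf3 result was not tested.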

How the data were processed

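Per the labels, RNA of hippocampus was sequenced in 16 libraries, 4 in each of 4 genotype groups. The authors deposited a table of raw counts, with no normalization, for 49671 genes and 92 ERCC spike-ins. The submitters' processing notes name Trimmomatic 0.36, STAR 2.5.2b, featureCounts, Subread 1.5.2, DESeq2 and GRCm38, with no role or order. Spike-ins (0.574% to 1.06% of all counts) were left out, and 49412 gene rows had a symbol.

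Counts were fitted in edgeR 4.0.16 (R 4.3.3) with TMM scaling, filterByExpr at a minimum count of 10, robust quasi-likelihood fits and 1 mean per group over all 16 libraries. In each of 7 comparisons, p was adjusted by the Benjamini-Hochberg method across the 16372 genes that passed the filter, and genes were called at 0.05. A standard error is the absolute log2 fold change over the square root of F. The scripts were tested on simulated counts. Alternatives were RLE factors, DESeq2 1.42.0, limma 3.58.1 voom with sample weights, other filters, a replicate block, a term for the leading digit in the suffix of each library's name, only the groups compared, and libraries left out. The relations with the oligodendrocyte list, no scaling beyond library size and the long minus short measure as a covariate were chosen after seeing the data. Correlations used 100000 permutations. Replicates differed by 4.56 to 24.3 times counting noise (chi-square per degree of freedom), so no pair of libraries was the same within counting error. That does not show that they came from different animals.

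The members and lists were chosen with earlier results of these data known. All 10 members are named, with genes of the lists that were called and the 5 genes most like Mapt.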

Additional observations from a re-analysis of the deposited data

Results flagged for a closer look

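Map1a stood at 1257 CPM in PS19_p16KO 3, far below the other libraries of its group, which ran from 1641 to 1687 CPM. The gap was 0.893 of the group's range, above Dixon's limit for 4 samples. Map1b stood at 1182 CPM in p16KO 1, with 1353 to 1386 CPM in the other 3 libraries of that group and a gap of 0.838 of the range. These were 2 of 40 sets of 1 gene in 1 group, and chance flags about 1 in 20. The long minus short measure was -0.27 in PS19_p16KO 3 and -0.12 in p16KO 1, the lowest values of the 16 libraries, and its part in either value was not tested.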

How the results depend on the processing

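Over 27 alternatives, 1860 member fold changes were recomputed and 0 were called. The lowest adjusted p was 0.135, for the average PS19 effect on Map2 by DESeq2. A change of sign occurred in 151 of them, in 35 of the 70 results, and the largest of these was 0.09 on the log2 scale in size as reported. The Mapt log2 fold change of PS19 over WT was -0.008861 by limma-voom and under leave-one-out ran from -0.03916 (without PS19 3) to 0.04655 (without WT 1); the cause was not tested. With the longest transcript as length, 4 of 10 genes kept their rank. The number of all genes called moved more: 264 in PS19 against WT (70 with only the groups compared, 438 without PS19 3), 135 in PS19_p16KO against PS19 (8 and 347 under the same settings), 1 in the interaction (160 without PS19 3), 64 for the average PS19 effect (10 with the long minus short covariate, 206 without PS19 3), 37 for the average p16KO effect (10 without p16KO 3, 119 without PS19 3), 0 in p16KO against WT (18 by DESeq2) and 3 in PS19_p16KO against p16KO (7 by DESeq2).

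With the replicate block, 0 members were called, the Mapt log2 fold change of PS19_p16KO over PS19 was 0.16, and 5 genes were called in the interaction and 23 for the average p16KO effect. Same-numbered libraries did not deviate together: r ran from -0.389 to 0.223 over 24 pairs, 6 of them over 0.1, and 4 of 16 libraries correlated best with their own number.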
